A study of Rattus norvegicus with 34 samples.

Results

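*Fcgr2a*, *Fcgr3a*, *Fcer2*, and *Tyrobp* are the receptors for the constant part of antibodies, together with an adaptor of activating immune receptors, on a card that measured 44 specific genes and 4 reference genes in rat retina. These 4 genes were chosen by name. All 4 symbols are in the RefSeq table of rat genes. Expression was compared between 6 Sprague Dawley (SD) rats, 6 uninjected PKD rats, 5 PKD rats given clodronate-coated liposomes (PKD + Clodronate), and 6 PKD rats given control liposomes (PKD + Controlliposomes). PKD rats of the strain PKD2(HA-1/703-CMV-247) are male and homozygous for a transgene that drives a truncated polycystin-2 from the CMV promoter, which is active in many tissues and not in phagocytes alone. SD rats carry no transgene, and neither they nor the untreated PKD rats were injected. The sex of the SD rats is not given in the sources used here. Both liposome groups received 3 µl into the vitreous at 4 and at 8 weeks of age, and the retinae of all groups were taken at 9 weeks. Clodronate can kill phagocytes that take up the liposomes. By staining of PKD retinae, however, the study found total microglia unchanged after clodronate and activated, CD74-positive microglia increased. Control liposomes increased both counts, compared to uninjected and to clodronate-treated PKD rats. PBS-injected PKD rats and clodronate-injected SD rats were not analysed here.

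Antibodies bound to a target are read by Fc receptors on phagocytes. The activating receptors for IgG signal through partner chains that carry an immunoreceptor tyrosine-based activation motif (ITAM), which is phosphorylated after cross-linking and recruits the kinase Syk. *Tyrobp* encodes DAP12, an ITAM adaptor of microglia, macrophages, and natural killer cells that pairs with receptors such as Trem2. *Fcgr3a* encodes an activating low-affinity IgG receptor of the CD16 type, and *Fcgr2a* encodes a low-affinity IgG receptor of the same gene cluster. *Fcer2* encodes CD23, a low-affinity IgE receptor of B cells and some myeloid cells that belongs to the C-type lectins and carries no ITAM. In the retina, microglia and macrophages of the vessels are the known sources of the IgG receptors and of *Tyrobp*.

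*Fcgr3a* and *Fcgr2a* both lie on chromosome 13, and in the comparisons below one of them passed and the other did not. The 250 bases before a start site of each are therefore shown, from RefSeq on the GRCr8 build. The *Fcgr3a* stretch is chr13:85782386-85782635 on the plus strand, and the *Fcgr2a* stretch is chr13:85828686-85828935 on the minus strand. Capitals mark GAGGAAGT, a sequence of the kind bound by the myeloid factor PU.1, or its first 6 letters GAGGAA, on either strand.
Fcgr3a: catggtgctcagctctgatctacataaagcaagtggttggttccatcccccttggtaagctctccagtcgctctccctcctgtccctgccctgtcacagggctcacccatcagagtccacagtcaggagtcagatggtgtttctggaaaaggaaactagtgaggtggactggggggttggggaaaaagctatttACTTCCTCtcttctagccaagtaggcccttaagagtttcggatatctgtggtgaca
Fcgr2a: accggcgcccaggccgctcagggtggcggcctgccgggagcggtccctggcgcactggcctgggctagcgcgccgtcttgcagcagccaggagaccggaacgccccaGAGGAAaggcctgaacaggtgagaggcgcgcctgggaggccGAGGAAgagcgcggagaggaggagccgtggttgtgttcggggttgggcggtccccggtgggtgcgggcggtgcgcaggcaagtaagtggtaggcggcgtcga

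The *Fcgr3a* stretch held GAGGAAGT once, on the strand opposite to the printed one, where it reads ACTTCCTC, with its first printed base at position -56 from the start site. The *Fcgr2a* stretch held GAGGAA at positions -143 and -102 and did not hold the full 8 letters. The stretch before a second *Fcgr2a* start site (chr13:85826733-85826982, minus strand) held neither. Of the 33469 stretches of this length in the table, 2.04% held GAGGAAGT and 23.3% held GAGGAA, which is part of it, on either strand. GGAAGT, which overlaps both, was in 19.2% of all stretches and here within the GAGGAAGT of *Fcgr3a*, and TATAAA was in 12.9% of all stretches and in none of these. These matches are descriptions of the letters and not binding sites. The table lists *Fcgr3a* among the older names of the *Fcgr2a* gene, whereas the gene now named *Fcgr3a* has the older names CD16-2 and Fcgr4. The assays are named here by the card's symbols. Which of these similar genes each assay measures is not given in the sources used here, and the stretches shown are those of the genes that carry the symbols now.

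The cards gave a quantification cycle (Cq) for 1 well per gene and rat, so the number of rats limits the precision. Expression is given on a log2 scale as the Cq of each gene subtracted from the averaged Cq of the 4 reference genes (*B2m*, *Mrpl19*, *Ywhaz*, and 18S), with the SD average at 0. The mean Cq of the reference genes ranged from 15.7 to 17.2 over the 23 rats. Single reference genes differed between groups in opposite directions. *B2m* had a mean Cq of 17.89 in SD rats and 17.19 to 17.54 in the PKD groups. Higher means than in SD rats were found in the PKD groups for *Mrpl19* (23.13 against 23.30 to 23.64), *Ywhaz* (17.53 against 17.95 to 18.10), and 18S (6.72 against 6.81 to 7.30). *Tyrobp* and *Fcgr3a* had median Cq values of 23.0 and 24.1, *Fcgr2a* of 31.4, and *Fcer2* of 33.4. *Fcer2* was the gene of the 4 with an empty well, in SD rat 93. Groups were compared with limma over all 4 groups, two-sided, with Benjamini–Hochberg adjustment over the 41 specific genes that had enough Cq values and a threshold of 0.05. All comparisons to one group use the same rats of that group and are therefore not independent. In RNA of the whole retina, fewer cells of a type and less RNA per cell cannot be told apart.

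*Tyrobp* was increased in all PKD groups compared to SD rats. In SD rats its expression ran from -0.64 over a median of 0.017 to 0.69. In PKD rats it ran from 0.63 over 0.80 to 1.12, and SD rat 99, at 0.69, was the SD rat that lay above the lowest PKD rats. The means ± standard deviations (SD after a value) were 0 ± 0.542 (SD, n = 6) and 0.85 ± 0.208 (n = 6), a 1.80-fold difference. The log2 difference of *Tyrobp* between PKD and SD rats was 0.85 (standard error 0.255, adjusted p = 0.00927 in limma; two-sided exact permutation test, p = 0.00649), and all 6 PKD rats were above the SD mean. *Tyrobp* was the member that passed in this comparison, in which 36.6% of the 41 tested genes passed and the median log2 difference over all genes was 0.44.

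The 5 clodronate-treated PKD rats had *Tyrobp* values of 0.49, 0.70, 1.08, 1.17, and 1.26, with a mean of 0.94 ± 0.328 (SD, n = 5). These values spread over and beyond the range of the untreated PKD rats on both sides. The difference to untreated PKD rats was 0.091, with a 95% confidence interval from -0.46 to 0.64 (limma, adjusted p = 0.817; exact permutation test, p = 0.569). Of the 41 genes, 0.00% passed limma in this comparison, with 5 at an unadjusted p under 0.05, and 0 of the 4 members passed or were among those 5. Compared to SD rats, *Tyrobp* was increased by 0.94 in clodronate-treated rats (standard error 0.268, adjusted p = 0.00468 in limma; exact permutation test, p = 0.0152).

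In control liposome-treated PKD rats *Tyrobp* ran from 0.81 over a median of 1.19 to 1.85, with a mean of 1.27 ± 0.483 (SD, n = 6). Every one of these rats was above every SD rat. The difference to SD rats was 1.27 (standard error 0.255, adjusted p = 0.000147 in limma; exact permutation test, p = 0.00216, which no p of 6 against 6 rats can go below). Groups that did not overlap were found for 12 of the 41 genes in this comparison. The control liposome-treated rats fell into 3 values between 0.81 and 0.92 and 3 values between 1.47 and 1.85, and the lower 3 lay within the range of the untreated PKD rats. The difference to untreated PKD rats was 0.42 (95% confidence interval -0.10 to 0.95, adjusted p = 0.415 in limma), and that to clodronate-treated rats was 0.33 (95% confidence interval -0.22 to 0.88, adjusted p = 0.600).

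The increase of *Tyrobp* over SD rats passed without any single rat and under all alternatives but one. When the 40 specific genes measured in all rats replaced the reference genes as the normalizer, the median difference to SD rats over all genes shifted by -0.82 in PKD rats, -0.88 in clodronate-treated rats, and -1.05 in control liposome-treated rats. *Tyrobp* was then at 0.026 (adjusted p = 0.902), 0.058 (adjusted p = 0.783), and 0.22 (adjusted p = 0.246) in limma. The 40 genes include *Tyrobp*, *Fcgr3a*, and *Fcgr2a* themselves, and the card holds genes tied to retinal inflammation and vasoregression. A rise that many of these genes share is therefore removed on this scale by construction. Which of these scales fits the retina was not tested.

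The assay named *Fcgr3a* was increased in control liposome-treated PKD rats compared to SD rats and did not pass in another comparison. In SD rats its expression ran from -0.90 over a median of -0.27 to 1.24, with 2 high values of 0.90 and 1.24 in rats 97 and 99 and the other 4 at or below 0.086. In untreated PKD rats it ran from -0.18 over a median of 0.69 to 1.22. The means were 0 ± 0.902 (SD, n = 6) and 0.63 ± 0.502 (n = 6). The groups overlapped over most of their ranges, and the difference was 0.63 (95% confidence interval -0.059 to 1.31, adjusted p = 0.147 in limma; exact permutation test, p = 0.169). Without SD rat 99 it was 0.88 and passed (adjusted p = 0.0239). SD rats 97 and 99 also had the 2 highest *Tyrobp* values of the SD group, 0.50 and 0.69.

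The 5 clodronate-treated PKD rats had *Fcgr3a* values of 0.069, 0.21, 0.28, 0.52, and 0.97, with a mean of 0.41 ± 0.353 (SD, n = 5). The 6 control liposome-treated rats ran from 0.74 over a median of 1.34 to 1.76, with a mean of 1.30 ± 0.426 (n = 6). One clodronate-treated rat, at 0.97, reached into the range of the control liposome group, and the other 4 lay below it. The difference between both liposome groups was 0.89 (standard error 0.350, 95% confidence interval 0.17 to 1.61), a 1.86-fold difference. The unadjusted p was 0.0171 and the adjusted p 0.147 in limma (exact permutation test, p = 0.0108). Of all genes, 4.88% passed in this comparison, and these were *Aif1* and *Itgam*. In a fit of these 2 groups alone, *Fcgr3a* passed with an adjusted p of 0.0399.

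Compared to untreated PKD rats, all 6 control liposome-treated rats were above the PKD mean for *Fcgr3a*, and the difference was 0.68 (standard error 0.333, unadjusted p = 0.053, adjusted p = 0.250 in limma; exact permutation test, p = 0.0368). Of all genes, 2.44% passed in this comparison, which was *C3* alone. Clodronate-treated and untreated PKD rats differed in *Fcgr3a* by -0.22 (95% confidence interval -0.94 to 0.50, adjusted p = 0.738). Compared to SD rats, the difference was 0.41 in clodronate-treated rats (adjusted p = 0.318) and 1.30 in control liposome-treated rats (standard error 0.333, adjusted p = 0.00159 in limma; exact permutation test, p = 0.0173). The latter is a 2.47-fold difference, and it passed without any single rat. With the mean of the specific genes as the normalizer it was 0.26 (adjusted p = 0.311), and the difference between the liposome groups was 0.73 (adjusted p = 0.109).

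**Figure D1:**
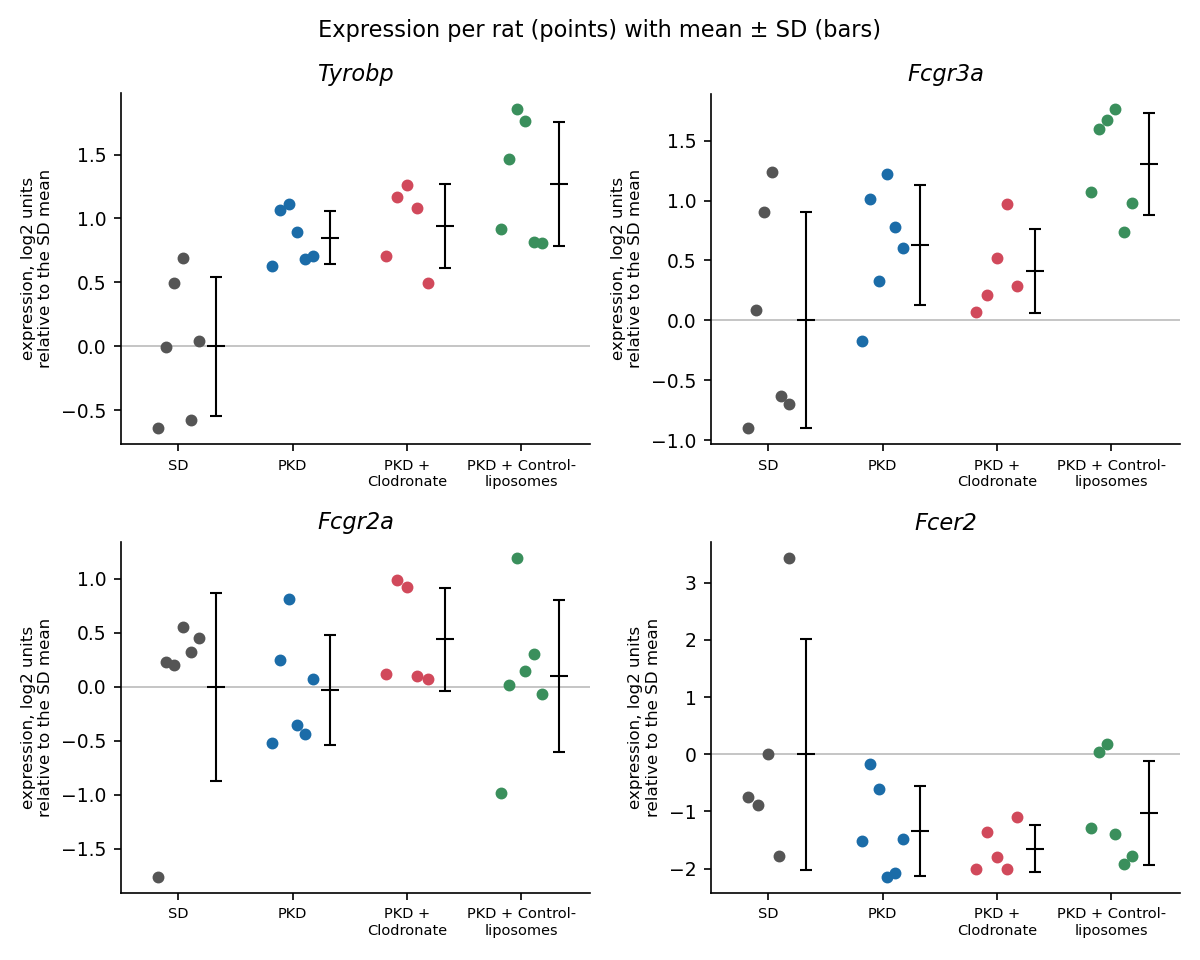
Expression of *Tyrobp*, *Fcgr3a*, *Fcgr2a*, and *Fcer2* in each rat (points), in log2 units with the SD average at 0, with the mean ± SD of each of the 4 groups beside the points. *Tyrobp* lay above every SD rat in all 6 control liposome-treated rats, *Fcgr2a* had 1 low SD rat at -1.76, and *Fcer2* had 1 high SD rat at 3.43.

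*Fcgr2a* did not pass in any of the 6 comparisons. In 5 SD rats its expression lay between 0.20 and 0.55, while SD rat 93 was at -1.76. In untreated PKD rats it ran from -0.52 over a median of -0.14 to 0.82, and in control liposome-treated rats from -0.99 over 0.080 to 1.19. The 5 clodronate-treated rats had values of 0.069, 0.097, 0.12, 0.92, and 0.99. All groups overlapped. The difference between PKD and SD rats was -0.029 (95% confidence interval -0.78 to 0.73, adjusted p = 0.951 in limma), and without SD rat 93 it was -0.38 (adjusted p = 0.389). Clodronate-treated rats differed from untreated PKD rats by 0.47 (95% confidence interval -0.32 to 1.26, adjusted p = 0.554) and from SD rats by 0.44 (-0.35 to 1.23, adjusted p = 0.318). Control liposome-treated rats differed from SD rats by 0.10 (-0.65 to 0.86, adjusted p = 0.843), from untreated PKD rats by 0.13 (-0.62 to 0.88, adjusted p = 0.870), and from clodronate-treated rats by -0.34 (-1.13 to 0.45, adjusted p = 0.600).

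*Fcer2*, the IgE receptor, was measured late in the PCR and varied most of the 4 genes. The 5 SD rats with a Cq had values of -1.78, -0.89, -0.75, -0.0027, and 3.43. In untreated PKD rats *Fcer2* ran from -2.14 over a median of -1.51 to -0.17. The 5 clodronate-treated rats had values of -2.02, -2.0, -1.80, -1.37, and -1.09, and the control liposome-treated rats ran from -1.91 over a median of -1.34 to 0.18. Every PKD group overlapped with the SD rats, whose mean was raised by the rat at 3.43. *Fcer2* was decreased in clodronate-treated PKD compared to SD rats, with a difference of -1.66 (standard error 0.657, adjusted p = 0.0366 in limma; exact permutation test, p = 0.0397). The difference was -0.80 without the SD rat at 3.43 and no longer passed (adjusted p = 0.170). It was also above the threshold without SD rat 99 (adjusted p = 0.0518) and without any one clodronate-treated rat except that at -1.09 (adjusted p from 0.0512 to 0.0712).

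Untreated PKD rats differed from SD rats in *Fcer2* by -1.34 (standard error 0.629, adjusted p = 0.100 in limma; exact permutation test, p = 0.136). Without the SD rat at 3.43 this difference was -0.48 (adjusted p = 0.523), and without SD rat 100 it was -1.78 and passed (adjusted p = 0.0309). Control liposome-treated rats differed from SD rats by -1.03 (adjusted p = 0.163), and without SD rat 100 by -1.47 (adjusted p = 0.0448). *Fcer2* did not pass between the PKD groups, with differences of -0.32 for clodronate-treated minus untreated, 0.31 for control liposome-treated minus untreated, and 0.63 for control liposome-treated minus clodronate-treated rats (adjusted p-values of 0.600 to 0.854). The empty well of SD rat 93 bears on these values. With empty wells set to a Cq of 40, the differences to SD rats were -0.24 in clodronate-treated, 0.078 in untreated, and 0.39 in control liposome-treated PKD rats.

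Compared to SD rats, 2 of the 4 members passed in clodronate-treated rats, *Tyrobp* higher and *Fcer2* lower, where 51.2% of all 41 genes passed. In control liposome-treated rats 2 members passed, *Tyrobp* and *Fcgr3a*, both higher, where 63.4% of all genes passed. The members' shares were near those of all genes. The median difference over all 41 genes was 0.63 for the clodronate group and 0.75 for the control liposome group, and over the 4 members it was 0.43 and 0.69. In the 3 comparisons between PKD groups, 0 of 4 members passed.

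**Figure D2:**
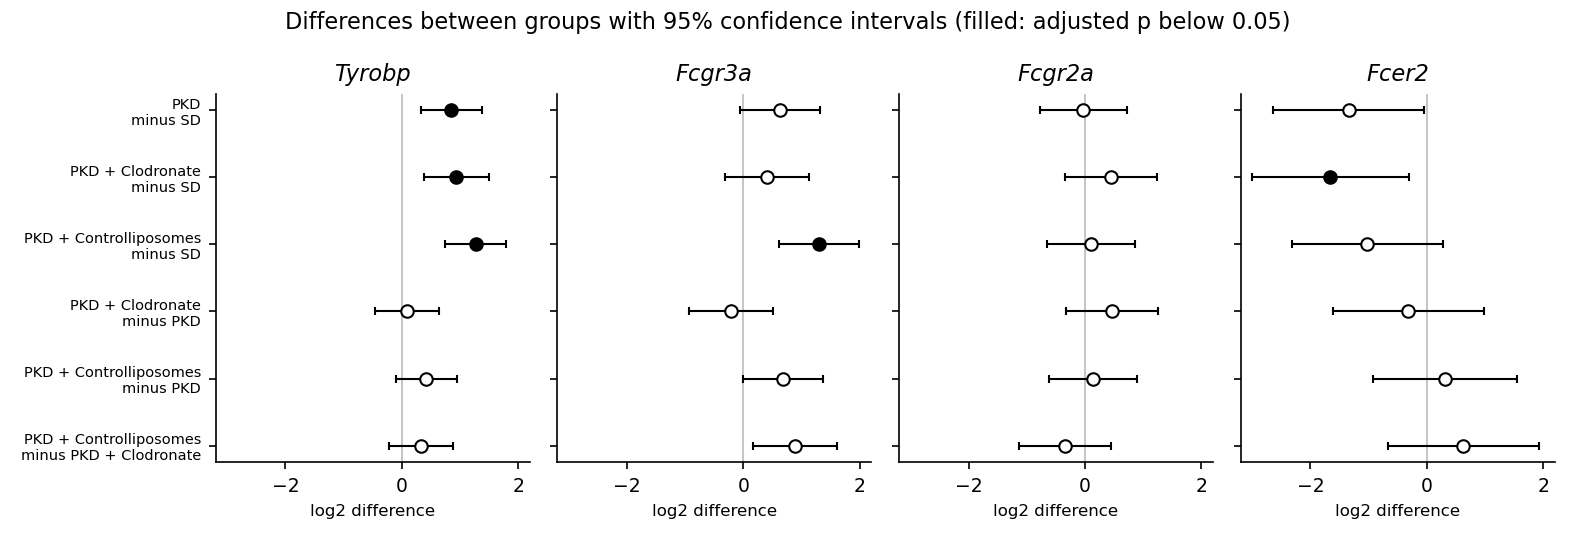
Log2 differences between the groups named on the left (points) with 95% confidence intervals (lines) for the 4 genes, from limma. Filled points have an adjusted p below 0.05, which are *Tyrobp* in all 3 comparisons to SD rats, *Fcgr3a* in control liposome-treated rats and *Fcer2* in clodronate-treated rats.

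A moderated F test over the 4 groups was nearest to the one-way form of the study's methods. *Tyrobp* (adjusted p = 0.00106) and *Fcgr3a* (adjusted p = 0.0129) passed it in limma, and *Fcer2* (adjusted p = 0.126) and *Fcgr2a* (adjusted p = 0.650) did not, where 56.1% of all genes passed. In the order of the group means, SD rats were lowest for *Tyrobp*, followed by PKD, clodronate-treated, and control liposome-treated rats, and the step from SD to PKD rats was the one between neighbours that passed. For *Fcgr3a* the order was SD, clodronate-treated, PKD, and control liposome-treated rats, and no step between neighbours passed (adjusted p-values of 0.318, 0.738, and 0.250). The order for *Fcgr2a* was PKD, SD, control liposome-treated, and clodronate-treated rats, and for *Fcer2* it was clodronate-treated, PKD, control liposome-treated, and SD rats, again with no passing step. The standard deviation within groups was 0.416 for *Tyrobp*, 0.595 for *Fcgr3a*, 0.668 for *Fcgr2a*, and 1.16 for *Fcer2*, against a median of 0.535 over the 41 genes. By this spread, *Tyrobp* ranked 9 and *Fcer2* ranked 40 of 41 from the smallest.

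The receptors were also set against *Tyrobp* of the same rat, with its Cq in place of the reference genes, which makes the values independent of the reference genes. *Tyrobp* is not taken here as the signalling partner of these receptors. Compared to SD rats, the ratio of *Fcer2* to *Tyrobp* was decreased in all 3 PKD groups and that of *Fcgr2a* in untreated and control liposome-treated PKD rats, while that of *Fcgr3a* did not pass in any comparison. The log2 ratio of *Fcgr2a* to *Tyrobp*, relative to the SD mean, lay between -1.12 and 0.90 in SD rats, with rat 93 lowest, and between -1.24 and -0.30 in PKD rats. It was decreased by 0.88 in PKD rats (standard error 0.293, adjusted p = 0.0179 in limma; exact permutation test, p = 0.0173) and by 1.17 in control liposome-treated rats (adjusted p = 0.00143; exact permutation test, p = 0.0152). In clodronate-treated rats the difference to SD rats was -0.50 (adjusted p = 0.166), and without SD rat 93 it was -0.72 and passed (adjusted p = 0.0353). *Fcgr2a* itself did not differ past the threshold between these groups and *Tyrobp* was higher in the PKD groups, as given above.

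The ratio of *Fcer2* to *Tyrobp* was decreased by 2.06 in PKD rats (adjusted p = 0.00947), by 2.47 in clodronate-treated rats (adjusted p = 0.0023), and by 2.17 in control liposome-treated rats (adjusted p = 0.00338), all compared to SD rats in limma. In both liposome groups every rat lay below the 5 SD rats with a Cq, of which the lowest was at -1.26. The highest rats of the clodronate and control liposome groups were at -1.46 and -1.31. How many of all genes did not overlap in this fit was not counted. Without the SD rat of the high *Fcer2* value the 3 differences were -1.18, -1.59, and -1.29 and still passed, as they did without any other single rat, with adjusted p-values in limma of at most 0.024. With empty wells set to 40, none of the 3 passed, with adjusted p-values of 0.398 to 0.547. In this fit 57.5% of 40 genes passed between PKD and SD rats, 52.5% between clodronate-treated and SD rats, and 67.5% between control liposome-treated and SD rats. Most of these genes were lower, 16 of 23, 14 of 21, and 20 of 27 in this order. The median difference over the 40 genes was -0.43, -0.31, and -0.54.

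The log2 ratio of *Fcgr3a* to *Tyrobp* had a standard deviation of 0.144 over the 6 control liposome-treated rats, against 0.359 to 0.470 in the other groups. In clodronate-treated rats the ratio lay between -0.95 and -0.11, and in control liposome-treated rats between -0.18 and 0.18. One clodronate-treated rat, at -0.11, reached into the range of the control liposome group. The difference between both was 0.56 (standard error 0.245, unadjusted p = 0.0311, adjusted p = 0.158 in limma; exact permutation test, p = 0.00433), where 0.00% of 40 genes passed. Compared to untreated PKD rats, 2.50% of 40 genes passed for either liposome group, and 0 of the 3 receptors. The difference of this ratio between clodronate-treated and SD rats was -0.53 (adjusted p = 0.072). It passed without the SD rat of the high *Fcer2* value (-0.68, adjusted p = 0.0214) and without the clodronate-treated rat of the highest *Fcgr3a* value (-0.63, adjusted p = 0.0462).

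**Figure D3:**
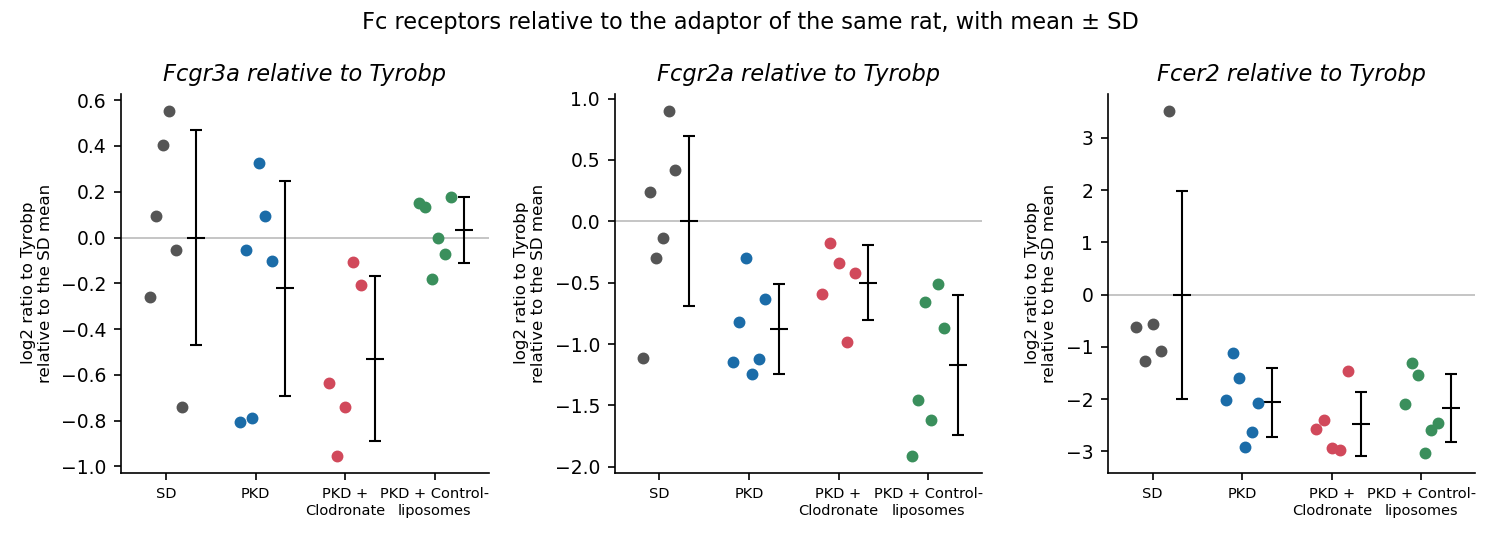
Log2 ratio of *Fcgr3a*, *Fcgr2a*, and *Fcer2* to *Tyrobp* in each rat (points), with the SD average at 0 and with the mean ± SD of each group. *Fcgr3a* was near 0 in every control liposome-treated rat (-0.18 to 0.18). *Fcer2* reached at most -1.31 in the liposome groups, against -1.26 in the lowest of the 5 SD rats with a Cq. SD rat 93 had an empty well and is not shown for *Fcer2*.

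*Aif1*, which encodes Iba1, and *Itgam*, which encodes CD11b, are general genes of microglia and macrophages, and their mean Cq served as a further normalizer. Both were higher in control liposome-treated than in clodronate-treated rats, by 0.99 for *Aif1* (adjusted p = 0.0194) and 0.81 for *Itgam* (adjusted p = 0.0278) against the reference genes. Both calls were lost without *B2m* as a reference gene, without the clodronate-treated rat at 0.70 or 1.26 of *Tyrobp* expression, and without the control liposome-treated rat at 1.47 or 1.76 of it. Relative to both genes, the difference of *Fcgr3a* between these groups was -0.0074 (95% confidence interval -0.62 to 0.61, adjusted p = 0.980 in limma), and over all 6 comparisons it lay between -0.0074 and 0.18. *Fcgr2a* relative to both genes was decreased by 1.24 in control liposome-treated compared to clodronate-treated rats (standard error 0.373, adjusted p = 0.00662 in limma; exact permutation test, p = 0.0108), and this passed without any single rat. The ratio of *Fcgr2a* lay between -2.05 and -0.024 in the former and between -0.37 and 0.99 in the latter. *Tyrobp* was decreased by 0.57 in the same comparison (adjusted p = 0.0415), which passed in 4 of the 11 fits that left out a rat, with adjusted p-values of up to 0.155. The call was lost without the clodronate-treated rats at 0.70, 1.17, or 1.26 of *Tyrobp* expression and without the control liposome-treated rats at 0.81 (either of both), 0.92, or 1.47. It was also lost with the compared groups alone (adjusted p = 0.0707 in limma) and with exact permutation tests (adjusted p = 0.0528). In this comparison 64.1% of 39 genes passed relative to *Aif1* and *Itgam*, so that the members' 2 of 4 was near the share of all genes. All 25 passing genes were lower, with a median difference of -0.84 over the 39 genes. Because both normalizer genes were themselves higher here, a ratio to them is lowered for every gene. Against the reference genes, *Fcgr2a* differed by -0.34 in this comparison (adjusted p = 0.600 in limma).

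Relative to *Aif1* and *Itgam*, *Tyrobp* was increased in clodronate-treated compared to SD rats by 0.70 (standard error 0.241, adjusted p = 0.0169 in limma; exact permutation test, p = 0.00866), and without the clodronate-treated rat at 1.26 of *Tyrobp* expression by 0.55 with an adjusted p of 0.059. It did not pass in untreated (0.37, adjusted p = 0.225) or control liposome-treated rats (0.14, adjusted p = 0.575). *Fcgr2a* was decreased by 1.04 in control liposome-treated compared to SD rats (adjusted p = 0.0148), which without the control liposome-treated rat at -0.99 of *Fcgr2a* expression was -0.83 with an adjusted p of 0.0528. This *Fcgr2a* call was also lost with exact permutation tests (adjusted p = 0.0718). *Fcer2* was decreased compared to SD rats by 1.73 in PKD (adjusted p = 0.0295), 1.81 in clodronate-treated (adjusted p = 0.0169), and 2.08 in control liposome-treated rats (adjusted p = 0.00474). Without the SD rat of the high *Fcer2* value these differences were -0.89 (adjusted p = 0.102), -0.97 (adjusted p = 0.0621), and -1.24 (adjusted p = 0.0137). The first also lost its call without either of the PKD rats at -2.14 and -2.08 of *Fcer2* expression (adjusted p = 0.0522 and 0.0603). With empty wells set to 40, none of the 3 passed. The call in PKD rats passed in 2 of 7 alternatives, and it was also lost with Cq values above 34 as empty (adjusted p = 0.0688), with the compared groups alone (0.0675), with the ordinary linear model (0.0532), and with exact permutation tests (0.0897). That in clodronate-treated rats was also lost with the compared groups alone (adjusted p = 0.0502). Of 39 genes, 30.8% passed between PKD and SD rats, 53.8% between clodronate-treated and SD rats, 59.0% between control liposome-treated and SD rats, 5.13% between clodronate-treated and untreated PKD rats, and 12.8% in control liposome-treated compared to untreated PKD rats. In the last pair of comparisons 0 of 4 members passed.

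*Trem2* and *Itgam* encode receptors that work with *Tyrobp* or beside Fc receptors on phagocytes. *Itgam* was increased together with *Tyrobp* in PKD compared to SD rats, by 0.83 (adjusted p = 0.00275), and in both liposome groups compared to SD rats. *Trem2*, the best known partner of the adaptor, passed in 0 of 6 comparisons. Its difference was -0.34 in PKD (adjusted p = 0.528), -0.53 in clodronate-treated (adjusted p = 0.234), and 0.40 in control liposome-treated rats (adjusted p = 0.341), compared to SD rats. Between the liposome groups *Trem2* differed by 0.93 (adjusted p = 0.147; exact permutation test, p = 0.0368), close to the 0.89 of *Fcgr3a*.

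The complement genes *C1s*, *C3*, *C5ar1*, and *C5ar2* belong to the arm that immune complexes can engage. Compared to SD rats, 1 of these 4 was increased in PKD (*C3*, by 1.13, adjusted p = 0.00555), 2 in clodronate-treated (*C1s* and *C3*), and 3 in control liposome-treated rats (*C1s*, *C3*, and *C5ar2*). Beside these counts stand shares of 36.6%, 51.2%, and 63.4% over all genes. *C3* was the one increased in control liposome-treated compared to untreated PKD rats, by 1.16 (adjusted p = 0.0490), and this call was lost without any one of the 6 PKD rats or of 4 of the 6 control liposome-treated rats, and without *B2m*, *Mrpl19*, or *Ywhaz* as a reference gene. The mediators *Il1b*, *Il6*, *Tnf*, *Il10*, and *Nos2*, which phagocytes can release after Fc receptor cross-linking, passed in 0 of 5 cases between PKD and SD rats. *Il1b* was increased in clodronate-treated compared to SD rats (0.83, adjusted p = 0.0245). In control liposome-treated compared to SD rats *Il6* (1.47, adjusted p = 0.00165) and *Il1b* (0.75, adjusted p = 0.0283) were increased and *Nos2*, the inducible nitric oxide synthase, was decreased (-1.24, adjusted p = 0.0342). Between the 3 PKD groups, 0 of 5 mediators passed in each comparison.

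Of the 6 microglia and macrophage genes *Aif1*, *Itgam*, *Cd74*, *Trem2*, *C5ar1*, and *Lgals3*, 2 were increased in PKD rats compared to SD rats, 2 in the clodronate group, and 3 in the control liposome group, where 36.6%, 51.2%, and 63.4% of all genes passed, and none of the 6 passed as decreased. *Trem2* (-0.34) and *Cd74* (-0.11) had lower means in PKD than in SD rats and *Trem2* (-0.53) and *Aif1* (-0.22) in the clodronate group. Their mean expression per rat lay between -0.88 and 0.75 in SD, -0.054 and 0.46 in PKD, -0.045 and 0.77 in clodronate-treated, and 0.59 and 1.13 in control liposome-treated rats. The marker list holds *Itgam* and *Trem2*, and its part in the differences of *Tyrobp* and *Fcgr3a* was not tested. *Mrc1* and *Stab1*, which mark macrophages of vessels and tissue borders, passed in 0 of 6 comparisons each, with mean expression of both genes between -1.49 and 0.87 in SD, -0.39 and 0.58 in PKD, -0.082 and 1.25 in clodronate-treated, and -0.71 and 1.28 in control liposome-treated rats. *Gfap*, which astrocytes and stressed Müller cells express, was increased in all 3 PKD groups compared to SD rats, and SD rat 97 was its highest SD rat at 1.80.

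For each member, the genes that moved most like it were taken as those with the smallest standard deviation over the rats of the difference in Cq, a description without a test that does not involve the reference genes. All genes share the cDNA and card of a rat. *Fcgr2a* was closest to *Mrc1*, with a standard deviation of 0.282 over 23 rats, then to *Stab1* (0.382) and *Pgf* (0.396), the gene of placental growth factor, against a median of 0.833 over 40 genes. *Mrc1* was at -1.76 in SD rat 93, as was *Fcgr2a*, and *Stab1* at -1.23. Without this rat the value for *Fcgr2a* and *Mrc1* was 0.288, and *Mrc1* and *Stab1* remained its closest genes. The *Fcgr2a* and *Mrc1* values were also lowest and highest in the same control liposome-treated rats, at -0.99 and -0.84 in the lowest and at 1.19 and 1.48 in the highest.

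*Tyrobp* was closest to *Icam1* (0.314), an adhesion molecule for leukocytes, then to *Itgam* (0.332) and to *Sphk1* (0.346), which encodes a sphingosine kinase, against a median of 0.655. *Fcgr3a* was closest to *Tyrobp* (0.421), then to *Itgam* (0.499) and *Aif1* (0.535), against a median of 0.750. These genes remained the closest 3 of both members without SD rat 93, SD rat 97, or the SD rat of the high *Fcer2* value. *Fcer2* had no close gene. Its smallest values were 1.14 with *Igf1*, 1.17 with *Il10*, and 1.18 with *Fcgr2a* over 22 rats, against a median of 1.38. Without the SD rat of the high *Fcer2* value they were 0.618 with *C5ar2*, 0.658 with *Igf1*, and 0.708 with *C5ar1*, and the median also fell, to 0.865.

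**Figure D4:**
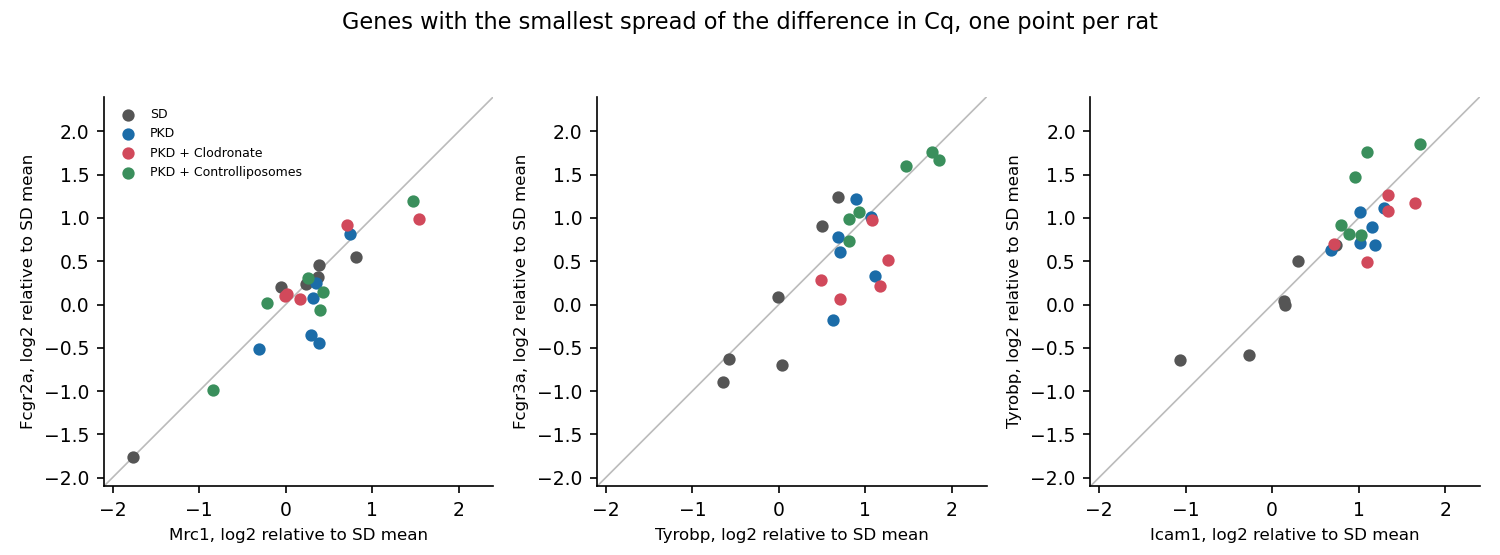
Expression in each of the 23 rats, in log2 units with the SD average at 0, for *Fcgr2a* against *Mrc1*, *Fcgr3a* against *Tyrobp*, and *Tyrobp* against *Icam1*, with the line of equal values. *Fcgr2a* and *Mrc1* were both at -1.76 in the lowest SD rat, and the points farthest from the line include a PKD rat at -0.44 for *Fcgr2a* and 0.39 for *Mrc1*.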

How the data were processed

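RNA of whole rat retinae was measured on TaqMan microfluidic cards by the authors, with 14 cycles of pre-amplification, up to 40 cycles of PCR, and wells for 44 specific and 4 reference genes. The deposited values are Cq values in cycles, a unit other than counts or intensities, read by the cycler's software before normalization. A further deposited file holds the authors' own signed fold changes between group means and was not used. The gene of each well was found by its Cq values, which the study's supplement lists by symbol (48 of 48 wells within 0.0001 cycles), and the group of each column in its sample list. Of 34 columns, 23 were used. The labels also name PBS-injected PKD and clodronate-injected SD rats. Which of the other 11 columns belongs to which group is not given in the sources used here. The labels give no days or batches of handling. The animal numbers run from 93 to 101 for SD, 2779 to 2799 for untreated PKD, and 2262 to 2638 for injected PKD rats. What these numbers stand for is not given. The p-values measure the spread between rats, and a difference in handling between groups cannot be told apart from one between the groups.

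Of 1104 wells, 57 were empty and were left out. Genes with 3 or more Cq values in every group were tested, 41 in all. Copy numbers are unknown. Groups were compared with limma 3.58.1 (lmFit and eBayes over the 4 groups) in R 4.3.3, with exact permutation tests of the rats beside it. The same fit was run relative to *Tyrobp* (40 genes) and to the mean of *Aif1* and *Itgam* (39 genes). The procedure was tested on simulated data. The text names the 4 members, the reference genes, lists of *Tyrobp* partners, complement genes, mediators, and cell type markers, and for each member the 3 genes with the smallest standard deviation of the difference in Cq over at least 20 rats. *Gfap* and rats named singly stand out by their values, and *Igf1*, *C5ar1*, and *C5ar2* beside *Fcer2* were named after leaving out 1 rat. The members and lists were chosen with earlier results of these data known.

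Alternatives left out each reference gene, normalized to the mean of the specific genes, set empty wells to 40, treated Cq values above 34 as empty, used only genes with a Cq in every rat, only the compared groups, an ordinary linear model, exact permutation tests, a robust prior or sample weights, and left out each rat. Likeness without SD rat 93, SD rat 97, or the SD rat of the high *Fcer2* value was added after seeing the data. Promoter sequences came from RefSeq (GRCr8), which held windows for 2 of the 4 members. Python 3.11.15 with matplotlib 3.10.9 made the plots.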

Additional observations from a re-analysis of the deposited data

Results flagged for a closer look

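In SD rat 93, *Fcgr2a* was at -1.76, while the 5 further SD rats lay between 0.20 and 0.55. Its gap to the nearest rat was 0.848 of the range of the group, above the 95% critical value of 0.625 of Dixon's test for 6 samples. This was 1 of 16 groups of values searched, where chance gives 1 in 20, or 0.8. In the same rat *Fcer2* had no Cq, *Mrc1* was at -1.76 and *Cd74* at -1.65, and the Cq of 18S, at 5.53, was the lowest of all 23 rats.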

How the results depend on the processing

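The 24 differences of the 4 members were recomputed under 12 or 13 alternatives, and 536 of 582 values, those without single rats included, kept their direction and their side of the threshold. With the mean of the specific genes as the normalizer, the members past the threshold were 2 between PKD and SD rats (*Fcer2* and *Fcgr2a*, both lower), 1 between clodronate-treated and SD rats (*Fcer2*), and 2 between control liposome-treated and SD rats (*Fcer2* at -1.94, adjusted p = 0.0120, and *Fcgr2a*, both lower), and *Tyrobp* and *Fcgr3a* lost their calls. This normalizer includes the members other than *Fcer2* and removes a rise that many genes of the card share. It also reversed *Fcgr3a* to -0.47 in clodronate-treated and -0.20 in PKD compared to SD rats, and *Fcgr2a* to -0.44 for the clodronate group and -0.95 for the control liposome group compared to SD rats (the latter with an adjusted p of 0.00865) and to -0.095 in control liposome-treated compared to untreated PKD rats. Over all genes, 23 passed between PKD and SD rats under it, 7 of them higher, against 15 with 14 higher, 22 (9 higher) between clodronate-treated and SD rats against 21 (19 higher), and 25 (8 higher) between control liposome-treated and SD rats against 26 (23 higher). Between the PKD groups, the counts over all genes were small and ranged over the alternatives from 0 to 2 for clodronate-treated against untreated, from 0 to 5 for control liposome-treated against untreated, and from 0 to 3 for control liposome-treated against clodronate-treated rats.

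Between clodronate-treated and SD rats, the count of 2 fell to 1, *Tyrobp*, without *B2m*, with empty wells at 40, with the compared groups alone, with the ordinary linear model, and with exact permutation tests. The setting with genes measured in every rat left out *Fcer2* because of its empty well. The count of 1, *Tyrobp*, under that setting therefore does not test the *Fcer2* call. Between the liposome groups it rose from 0 to 1, *Fcgr3a*, with the compared groups alone. Between PKD and SD rats it rose from 1 to 2, with *Fcgr3a*, with sample weights. Leaving out single rats gave 1 to 2 between clodronate-treated and SD rats, 1 to 2 between PKD and SD rats, and 2 to 3 between control liposome-treated and SD rats. Relative to *Aif1* and *Itgam*, the 7 calls over all comparisons fell to 4 with empty wells at 40, with the compared groups alone, and with exact permutation tests, and relative to *Tyrobp* the 5 calls fell to 2 with empty wells at 40. With genes measured in every rat, 4 and 2 calls were left, respectively. The *Fcer2* calls were absent there because *Fcer2* was not tested under that setting. Leaving out single rats gave 5 to 7 and 5 to 6 calls, respectively, and 2 to 3 members in the F test.

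With empty wells at 40, *Fcer2* reversed to 0.39 in control liposome-treated and 0.078 in PKD compared to SD rats. *Fcgr2a* in control liposome-treated rats reversed to -0.025 without *Mrpl19*, -0.048 without *Ywhaz*, and -0.22 with sample weights compared to SD rats, and to -0.0058 with sample weights compared to PKD rats. In PKD compared to SD rats it was 0.14 without *B2m*. Without single rats, *Fcgr2a* ranged from -0.38 to 0.081 between PKD and SD rats, from -0.25 to 0.32 between control liposome-treated and SD rats, and from -0.089 to 0.35 between control liposome-treated and PKD rats.

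Relative to *Aif1* and *Itgam*, sample weights gave -0.10 for *Fcgr2a* between clodronate-treated and SD rats. They gave -0.10 for *Fcgr3a* between clodronate-treated and PKD rats, -0.084 between control liposome-treated and PKD rats, and 0.019 between the liposome groups. Without single rats *Fcgr3a* ranged from -0.12 to 0.20, from -0.13 to 0.19, and from -0.11 to 0.095 in these comparisons, from -0.020 to 0.31 between PKD and SD rats, and from -0.0016 to 0.33 between control liposome-treated and SD rats. *Fcgr2a* ranged from -0.067 to 0.35 between clodronate-treated and SD rats, and *Fcer2* from -0.24 to 0.13 between clodronate-treated and PKD rats. Relative to *Tyrobp*, *Fcer2* ranged from -0.28 to 0.080 between control liposome-treated and PKD rats, and *Fcgr3a* from -0.11 to 0.14 between control liposome-treated and SD rats. The cause of these changes was not tested. No paired analysis was possible because the columns carry animal numbers and not the replicate numbers of the labels.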
